A study of Mus musculus with 8 samples.

Results

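The comparison described here is that of mouse embryonic stem cells (ES cells) labelled as Skp1a knockouts (KO) with ES cells labelled fl/fl, in which Skp1a is floxed and no deletion is named. ES cells are pluripotent cells that grow in culture and can form every lineage of the embryo. The libraries were chosen by their titles, which gave 2 KO-labelled and 2 fl/fl libraries, 4 of the 8 in the series. The other 4 come from embryoid bodies, clumps of ES cells that have started to differentiate. They served here to estimate the spread between libraries, and also entered the filter on low counts and the scaling. All groups grew in a medium described only as standard, and the fl/fl cells carry the floxed allele that the KO-labelled cells would have lost. Titles number the libraries by lots: 1 and 2 for fl/fl and 1 and 12 for KO-labelled ES cells. The labels name no line, clone, deletion method or deleted exon, and do not say whether lots are separate cultures. The tissue field calls every KO-labelled library ES cells and every fl/fl library embryoid body, against the titles. The stated aim is to compare RNA of cells with and without Skp1, and the series title links SKP1A to the breakdown of PRC2 and to genes kept silent by Polycomb.

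SKP1 is the adaptor of SCF ubiquitin ligases: it joins the scaffold CUL1 to one of many F-box proteins, each of which brings its own substrates to be marked for breakdown by the proteasome. Known substrates include cyclins, CDK inhibitors, circadian cryptochromes and the nuclear forms of the sterol factor SREBP. SKP1 also belongs to the variant PRC1 complex around KDM2B and PCGF1. PRC2, whose core is EZH2, EED and SUZ12, methylates histone H3 and keeps developmental regulators silent in ES cells.

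Total counts lay between 21545868 and 23343471 in the 4 ES cell libraries, so depth hardly differed between the groups. Levels are given as CPM, a gene's counts per 1000000 counts of its library after TMM scaling, changes as log2 of KO-labelled over fl/fl cells ± standard error with n = 2 libraries per group, and a gene is called when its edgeR quasi-likelihood adjusted p is under 0.05. Each p reflects no more than the differences among libraries of a group, which could be technical; this spread was low, with a common biological coefficient of variation of 3.4%. Mitochondrially encoded transcripts took 1.73% to 1.76% of counts in fl/fl and 2.42% to 2.43% in KO-labelled cells. The 10 ES cell markers summed to 7052 to 7229 CPM in fl/fl and 6207 to 6432 CPM in KO-labelled cells, and all were above 1 CPM in every library. Of the other marker sets, fibroblast feeder genes summed to 513 to 544 CPM in fl/fl and 570.4 to 634 CPM in KO-labelled cells, with Lum under 1 CPM throughout. Primitive endoderm markers summed to 102 to 103 CPM in fl/fl and 87.1 to 87.6 CPM in KO-labelled cells. Trophectoderm markers summed to 159 to 159 CPM in fl/fl and 133 to 137 CPM in KO-labelled cells, with Cdx2, Elf5 and Plac1 under 1 CPM. Tfap2c made up most of this sum, with 137 and 138 CPM in fl/fl and 106 and 108 CPM in KO-labelled cells. Of the 7 trophectoderm markers 2 were called higher and 1 lower, so the sum does not give the direction of the set. Primed epiblast markers summed to 214 to 219 CPM in fl/fl and 180.2 to 188 CPM in KO-labelled cells, most of it from Dnmt3b. Neural markers summed to 23.9 to 24.1 CPM in fl/fl and 31.9 to 32.3 CPM in KO-labelled cells. Tubb3 was the 1 neural marker called, at 18.8 and 18.6 CPM in fl/fl and 27.8 and 27.4 CPM in KO-labelled cells. Sox1 and Pax6 were not called, and Dcx was under 1 CPM. Markers of 2-cell-like cells summed to 6.98 to 7.27 CPM in fl/fl and 10.6 to 11.2 CPM in KO-labelled cells, with 1 of 5 called higher. The part of these other cell types in the results was not tested. Markers of blood stayed under 1 CPM and Hbb-bs was listed at 0.

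Skp1a itself (chromosome 11, 52231995 to 52246858, + strand, GRCm38) kept most of its counts in the KO-labelled cells. Its level was 420.2 and 430.3 CPM in fl/fl and 369 and 361 CPM in KO-labelled cells, so that 85.9% of the fl/fl level remained (log2 change -0.22 ± 0.03, edgeR adjusted p = 0.00073). The groups did not overlap, yet the fall was small for a gene labelled as knocked out. Counts over a whole gene do not show whether an exon is missing, and the genotype is therefore given by its label throughout. Of the 3 tested genes on each side of Skp1a, 3 fell, 2 rose and 1 was not called. Downstream, Tcf7 (-0.18 ± 0.04), a Wnt-responsive transcription factor, and Vdac1 (-0.27 ± 0.03), a channel of the mitochondrial outer membrane, fell, and 9530068E07Rik (0.28 ± 0.04) rose. Upstream, Ppp2ca (-0.14 ± 0.03), the catalytic subunit of protein phosphatase PP2A, fell, Olfr1372-ps1 (0.58 ± 0.08) rose and Cdkl3 (0.16 ± 0.13) was not called. Ppp2ca lost its call with library sizes alone (edgeR adjusted p = 0.136), after thinning to the smallest library (0.0698) and without KO-labelled lot 1 (0.077), KO-labelled lot 12 (0.0617) or fl/fl lot 2 (0.121). The call of Tcf7 was lost after thinning (0.0563) and without fl/fl lot 1 (edgeR adjusted p = 0.0512) or KO-labelled lot 1 (0.0559).

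Of 16542 genes tested, 3926 (23.7%) were called: 1806 (10.9%) were higher and 2120 (12.8%) lower in KO-labelled cells. In all 3926 both libraries of one group lay above both of the other, so such separation adds nothing to a call. Most changes were small. The median absolute change of called genes was 0.28 on the log2 scale, 84.6% of them changed by less than 1.5-fold, and 205 genes (1.24%) were called and changed at least 2-fold, of which 174 were higher and 31 lower. In the fits that left out fl/fl lot 1, fl/fl lot 2, KO-labelled lot 1 or KO-labelled lot 12, 2036, 1909, 2226 and 2233 genes were called, and the number at least 2-fold changed was 119, 128, 135 and 114. Of the 3926 genes, 1395 kept their call and direction in all 4 of these fits, 631 higher and 764 lower. With library sizes alone as the scaling, 72.1% of called genes were higher (2819 higher, 1089 lower), against 46.0% with TMM factors, since that scaling moved the median of all genes from 0.00 to 0.07.

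The direction of change went with the level of the gene. Genes with a mean under 1 CPM had a median change of 0.24 (2358 genes) and those between 1 and 5 CPM one of 0.14. The median was -0.08 between 100 and 500 CPM and -0.14 among the 272 genes at 500 CPM or more. Among these most abundant genes, 58.8% were called lower and 8.09% higher. Between 100 and 500 CPM 37.7% were lower and 8.15% higher, and between 5 and 20 CPM 5.35% and 15.9%. A list of abundant genes therefore starts from a higher share of falls than 12.8%. Of the 174 genes at least 2-fold higher, 149 stayed under 5 CPM in KO-labelled cells.

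**Figure D1:**
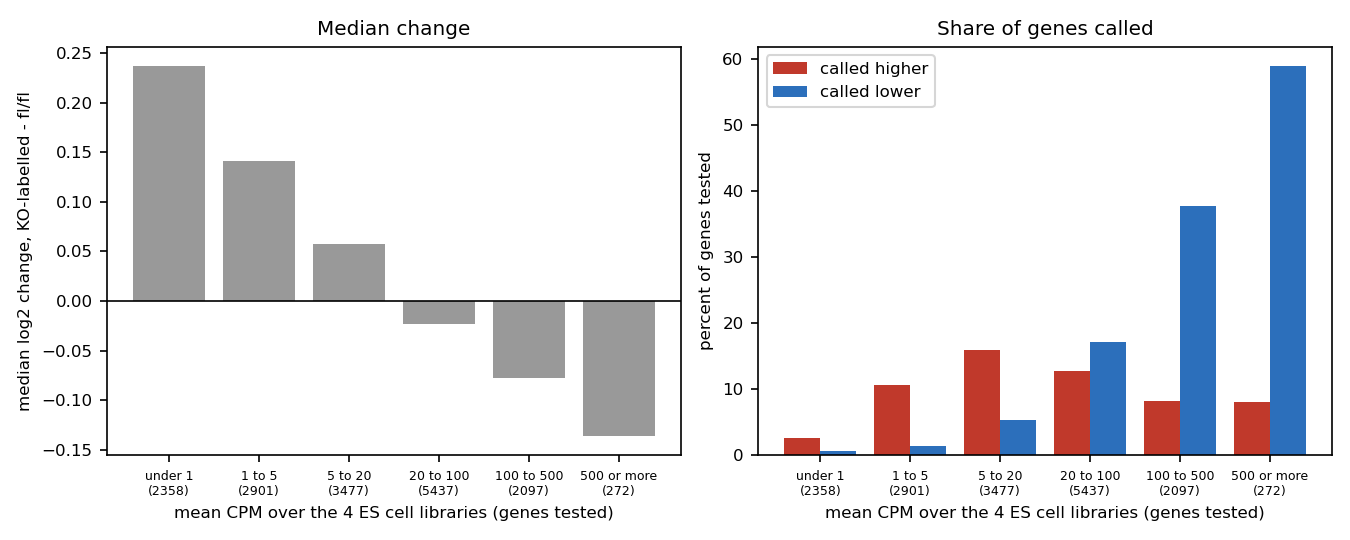
Changes in ES cells by the gene's mean level. Left, the median log2 change (KO-labelled minus fl/fl, y axis) of the genes in each class of mean CPM over the 4 ES cell libraries (x axis, number of genes in brackets). Right, the percent of those genes called higher (red) or lower (blue), where the lower share reaches 58.8% in the most abundant class.

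Leaving out pseudogenes and models without a proper name, 12 of the 15 largest rises among genes of at least 5 CPM are described, led by Msln, Krt17 and Id2. Msln, which encodes the surface protein mesothelin, had 3.82 and 3.66 CPM in fl/fl and 20.3 and 18.9 CPM in KO-labelled cells (log2 change 2.39 ± 0.11, edgeR adjusted p = 3.5e-06). Krt17, a type I keratin, had 10.2 and 9.33 CPM in fl/fl and 31.3 and 30.1 CPM in KO-labelled cells (log2 change 1.65 ± 0.09, edgeR adjusted p = 3.5e-06). In both cases the 2 KO-labelled libraries lay far above both fl/fl libraries. Id2 encodes an inhibitor of basic helix-loop-helix factors and had the smallest p of any rise, with 13.2 and 13.2 CPM in fl/fl and 40.9 and 41.4 CPM in KO-labelled cells (log2 change 1.64 ± 0.06, edgeR adjusted p = 5.76e-07). Acta1 (1.52 ± 0.10), the skeletal muscle actin, and Ceacam1 (1.37 ± 0.18), a cell adhesion molecule, followed. Others among the 12 were the synaptic genes Cplx1 (1.44 ± 0.14) and Grip1 (1.41 ± 0.11), the transporter Slc43a3 (1.28 ± 0.11), the acyltransferase Mboat1 (1.22 ± 0.13), the transcription factor Nfe2l3 (1.20 ± 0.16), the metalloproteinase Mmp25 (1.11 ± 0.15) and Oasl2 (1.11 ± 0.12), an interferon-inducible gene. All 12 kept their call in each of the 18 alternative fits.

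Among the genes chosen in the same way falls were smaller than rises, and none of the 15 largest reached 2-fold. Cry1, a cryptochrome that represses the circadian activators, had 61 and 62.6 CPM in fl/fl and 30.9 and 33 CPM in KO-labelled cells (log2 change -0.95 ± 0.05, edgeR adjusted p = 3.5e-06). Kdm4b, a demethylase of histone H3, had 74.4 and 73 CPM in fl/fl and 41.3 and 39.8 CPM in KO-labelled cells (log2 change -0.86 ± 0.05, edgeR adjusted p = 3.59e-06). Upp1, a uridine phosphorylase, had 266 and 269 CPM in fl/fl and 165 and 154 CPM in KO-labelled cells (log2 change -0.74 ± 0.04, edgeR adjusted p = 4.1e-06). For these 3 genes the fl/fl pair and the KO-labelled pair were each tight and did not overlap. The other falls included Mpc1 (-0.92 ± 0.15), a subunit of the mitochondrial pyruvate carrier, Pcx (-0.69 ± 0.09), pyruvate carboxylase, Acss1 (-0.77 ± 0.08), mitochondrial acetyl-CoA synthetase, Coq8a (-0.70 ± 0.07), which acts in coenzyme Q synthesis, and Ndufa4l2 (-0.71 ± 0.09), a hypoxia-inducible protein related to a respiratory chain subunit. The organic anion transporter Slco4a1 (-0.94 ± 0.15) and the secreted proprotein Pcsk1n (-0.76 ± 0.10) also fell, as did Rgcc (-0.74 ± 0.13) and C2cd2l (-0.72 ± 0.11). Thinning to the smallest library ended the calls of Rgcc (edgeR adjusted p = 0.0814) and C2cd2l (0.245). Among the smallest p values of falls were H2ax (-0.58 ± 0.03) and Mdc1 (-0.56 ± 0.03), which mark and bind DNA breaks, Ldhb (-0.59 ± 0.03), a lactate dehydrogenase subunit, Klf10 (-0.57 ± 0.04), a TGF-beta-inducible factor, and Tgif1 (-0.54 ± 0.03), a repressor of TGF-beta signalling. Of the 15, Ppp1r3c, Csnk2a3 and Lars2 lost their call in at least 1 fit without an ES cell library, with edgeR adjusted p in brackets: Ppp1r3c without fl/fl lot 1 (0.091) or KO-labelled lot 1 (0.0739), Csnk2a3 without fl/fl lot 2 (0.196) or KO-labelled lot 1 (0.149), Lars2 without fl/fl lot 2 (0.126) or KO-labelled lot 12 (0.106). DESeq2 did not call them either, with adjusted p from 0.057 to 0.122.

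**Figure D2:**
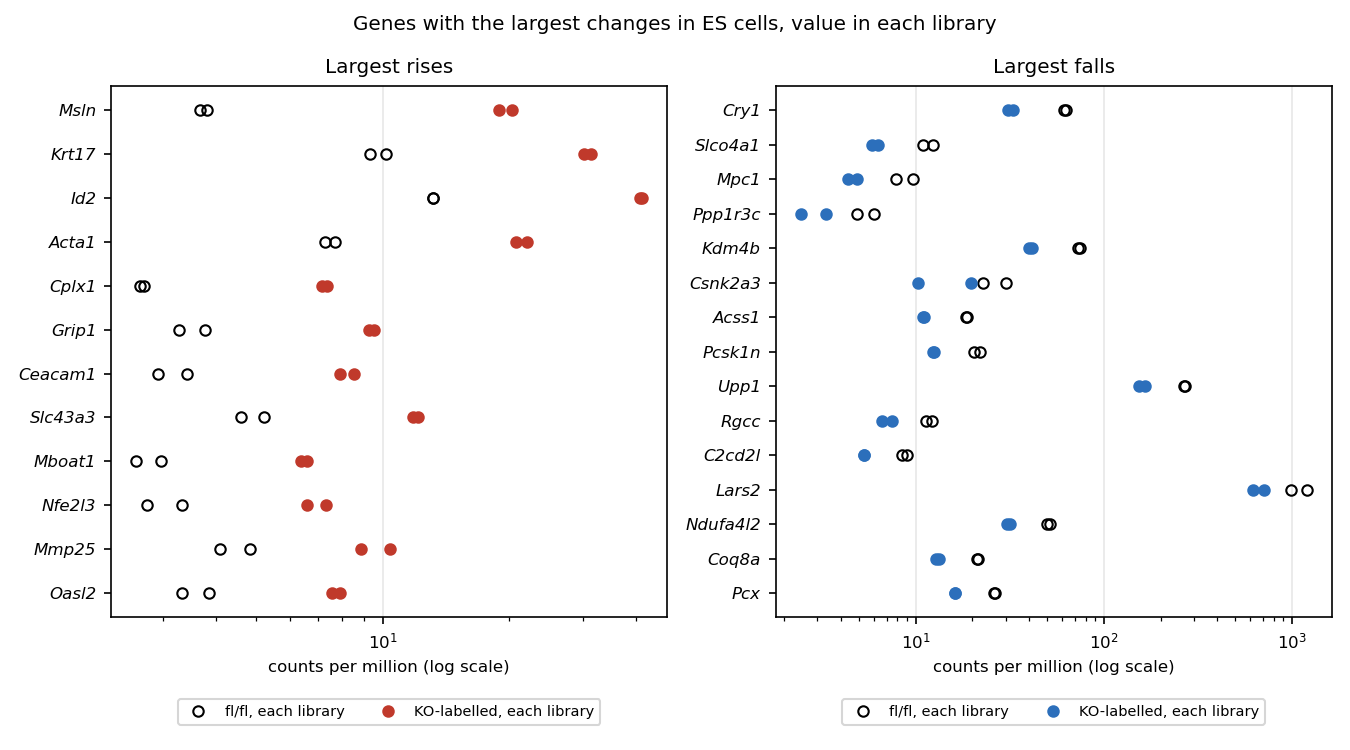
Of the 15 largest rises and 15 largest falls among called genes of at least 5 CPM, 12 rises (left) and 15 falls (right) are drawn. Each row is a gene and each point 1 library (open for fl/fl, filled for KO-labelled) on a log axis of CPM. Both libraries of one group lie above both of the other in every row because the genes were selected that way. The gap is smallest for Csnk2a3.

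Subunits of PRC2 changed by small amounts. Of 13 tested, none was called higher and 4 were lower, with a median of -0.07. Of the 13, 7 had a mean between 100 and 500 CPM and 1 a higher one, where 37.7% and 58.8% of all genes were lower, so 4 falls are no more than other genes at these levels show. The catalytic subunit Ezh2 had 253 and 265 CPM in fl/fl and 244 and 248 CPM in KO-labelled cells (log2 change -0.07 ± 0.04, edgeR adjusted p = 0.176), and Eed, which binds the methylated histone, had 152 and 155 CPM in fl/fl and 145 and 135 CPM in KO-labelled cells (log2 change -0.13 ± 0.04, edgeR adjusted p = 0.0508). Neither was called. Suz12, the scaffold of the core, had 474 and 476 CPM in fl/fl and 429 and 438 CPM in KO-labelled cells (log2 change -0.13 ± 0.03, edgeR adjusted p = 0.00997). The groups did not overlap, but the call of Suz12 was lost with library sizes alone (edgeR adjusted p = 0.159) and without KO-labelled lot 1 (0.1), fl/fl lot 1 (0.0593) or fl/fl lot 2 (0.0863). The calls that stayed in all fits leaving out an ES cell library were Ezh1 (-0.27 ± 0.04), the alternative catalytic subunit, and Epop (-0.28 ± 0.05), an accessory subunit that links PRC2 to elongin. Jarid2 (-0.07 ± 0.04) and Mtf2 (-0.03 ± 0.03), which help PRC2 find its sites, were not called. With library sizes alone 2 of the 13 were called lower.

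PRC1 subunits showed more calls: 3 of 28 were higher and 10 lower, with a median of -0.07. Of the 28, 7 had a mean between 100 and 500 CPM and 1 a higher one. At these levels 37.7% and 58.8% of all genes were lower. Phc1, a polyhomeotic subunit of canonical PRC1, had 684 and 679 CPM in fl/fl and 493 and 508 CPM in KO-labelled cells (log2 change -0.45 ± 0.03, edgeR adjusted p = 8.75e-06), the largest fall with a stable call among the subunits. Cbx7 (-0.27 ± 0.06), the reader of methylated H3 in ES cells, and Mga (-0.22 ± 0.04), a scaffold of the variant complex with PCGF6, also fell. E2f6 (0.41 ± 0.07), a partner of the same variant complex, rose. The ubiquitin ligase Rnf2 (-0.02 ± 0.04) and Kdm2b (0.06 ± 0.04), the F-box subunit that ties SKP1 to PRC1, were not called. In the fits without 1 ES cell library, 4 to 8 subunits were called lower, and 6 with library sizes alone.

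Hox genes and other developmental regulators listed as Polycomb targets showed few calls. Of the 39 Hox genes, 29 passed the filter on low counts and 1 was called, Hoxb9 (0.55 ± 0.16), with a median of 0.04 over the 29; it was not called in any fit without 1 ES cell library, where edgeR adjusted p lay between 0.0937 and 0.125. Of 50 other developmental regulators, 38 passed, and 2 were higher and 3 lower, with a median of 0.02. This is 13.2% of those tested, under the 23.7% of all genes. A mean under 5 CPM was found for 28 of the 38, where few genes of any kind were called. The list also holds expressed genes, and 1 of the 3 falls was in a gene with a mean between 100 and 500 CPM. Lhx2, a LIM homeobox regulator of forebrain and eye, had 1.35 and 1.47 CPM in fl/fl and 3.66 and 3.57 CPM in KO-labelled cells (log2 change 1.36 ± 0.18, edgeR adjusted p = 0.000451). It was the only one of the 5 whose call held without each ES cell library in turn. The endoderm regulators Sox17 (-0.93 ± 0.19) and Gata4 (-0.52 ± 0.11) were lower, but leaving out fl/fl lot 2 gave edgeR adjusted p = 0.0639 and 0.0671, and leaving out KO-labelled lot 1 gave 0.0722 for Gata4. After thinning to the smallest library adjusted p was 0.166 and 0.0936.

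Genes that support pluripotency fell together by modest amounts, although Pou5f1 and Nanog were not called. Pou5f1 (OCT4) had 859.8 and 879 CPM in fl/fl and 834 and 794 CPM in KO-labelled cells (log2 change -0.10 ± 0.03, edgeR adjusted p = 0.0685), and Nanog 499.8 and 515 CPM in fl/fl and 547 and 528 CPM in KO-labelled cells (log2 change 0.08 ± 0.04, edgeR adjusted p = 0.199). Of 17 genes of general pluripotency, 14 were lower and 1 higher, with a median of -0.22 against 0.00 over all genes. Utf1, a chromatin protein of undifferentiated cells, had 373 and 375 CPM in fl/fl and 259 and 264 CPM in KO-labelled cells (log2 change -0.52 ± 0.03, edgeR adjusted p = 8.57e-06). Sox2 (-0.23 ± 0.03), the partner of OCT4, Sall4 (-0.43 ± 0.05), a zinc finger factor of the network, and Lin28a (-0.36 ± 0.03), an RNA-binding inhibitor of let-7, fell as well. Of 19 naive pluripotency genes, 9 were lower and 1 higher, and with library sizes alone 7 were lower and 3 higher. Of the 19, 9 had a mean between 100 and 500 CPM and 3 a higher one. At these levels 37.7% and 58.8% of all genes were lower. Esrrb, an orphan nuclear receptor of the naive state, had 540.1 and 527 CPM in fl/fl and 373 and 385 CPM in KO-labelled cells (log2 change -0.49 ± 0.04, edgeR adjusted p = 2.22e-05), and Zfp42 (REX1) had a change of -0.24 ± 0.04. Of the 17 general genes, 10 had a mean between 100 and 500 CPM and 5 a higher one, where falls were frequent. Of the same 17, 10 to 12 were called lower without 1 ES cell library.

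The LIF pathway sustains naive ES cells: LIF binds LIFR and gp130 (Il6st), and STAT3 then activates Klf4, Socs3 and other targets. Lif (0.44 ± 0.11) was the only one of 23 listed genes called higher, and Lifr (-0.21 ± 0.05) and Stat3 (-0.24 ± 0.04) were called lower. Stat3 lost the call without fl/fl lot 2 (edgeR adjusted p = 0.0573), Lifr without KO-labelled lot 12 or either fl/fl lot (0.0562 to 0.0686) and Lif without any 1 of the 4 libraries (between 0.066 and 0.0868). Thinning to the smallest library ended the calls of Lif (0.0655) and Stat3 (0.0501). Il6st (-0.06 ± 0.04) was not called. Of 13 targets, 7 fell, and all 7 kept their call without each ES cell library. Klf4, a reprogramming factor, had 155 and 157 CPM in fl/fl and 112 and 107 CPM in KO-labelled cells (log2 change -0.51 ± 0.04, edgeR adjusted p = 1.92e-05). Socs3, the feedback inhibitor of the pathway, had 128 and 125 CPM in fl/fl and 99.8 and 99.1 CPM in KO-labelled cells (log2 change -0.34 ± 0.04, edgeR adjusted p = 0.000184). Socs2 (-0.35 ± 0.05), the kinases Pim1 (-0.29 ± 0.03) and Pim3 (-0.22 ± 0.03) and Klf5 (-0.24 ± 0.03) made up the rest with Spry2. Over the whole list 9 of 23 genes were lower, beside 12.8% of all genes. Of the 23, 8 had a mean between 100 and 500 CPM and 1 a higher one. At these levels 37.7% and 58.8% of all genes were lower.

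FGF4 is made by ES cells themselves and acts through ERK towards exit from the naive state. Fgf4 had 362 and 367 CPM in fl/fl and 279 and 280.4 CPM in KO-labelled cells (log2 change -0.38 ± 0.03, edgeR adjusted p = 2.03e-05). Of 15 feedback genes and targets, 7 fell and 2 rose. Dusp4, an ERK phosphatase, had 34.3 and 33.5 CPM in fl/fl and 22.9 and 20.9 CPM in KO-labelled cells (log2 change -0.63 ± 0.06, edgeR adjusted p = 6.32e-05). Spry2 (-0.52 ± 0.05), Spry4 (-0.52 ± 0.08) and Spred2 (-0.25 ± 0.05), inhibitors of RAS-ERK signalling, and the ETS factors Etv1 (-0.54 ± 0.10), Etv4 (-0.25 ± 0.05) and Etv5 (-0.29 ± 0.03) fell. Egr1 (0.42 ± 0.06), an immediate early gene, and Phlda1 (0.78 ± 0.09) rose, and Dusp6 (0.01 ± 0.07), another ERK phosphatase, was not called. The targets thus moved in both directions. Over the whole list 8 of 24 genes were lower, beside 12.8% of all genes. Of the 24, 4 had a mean between 100 and 500 CPM and 1 a higher one. At these levels 37.7% and 58.8% of all genes were lower. All 8 falls in the pathway, Fgf4 included, held without each ES cell library.

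**Figure D3:**
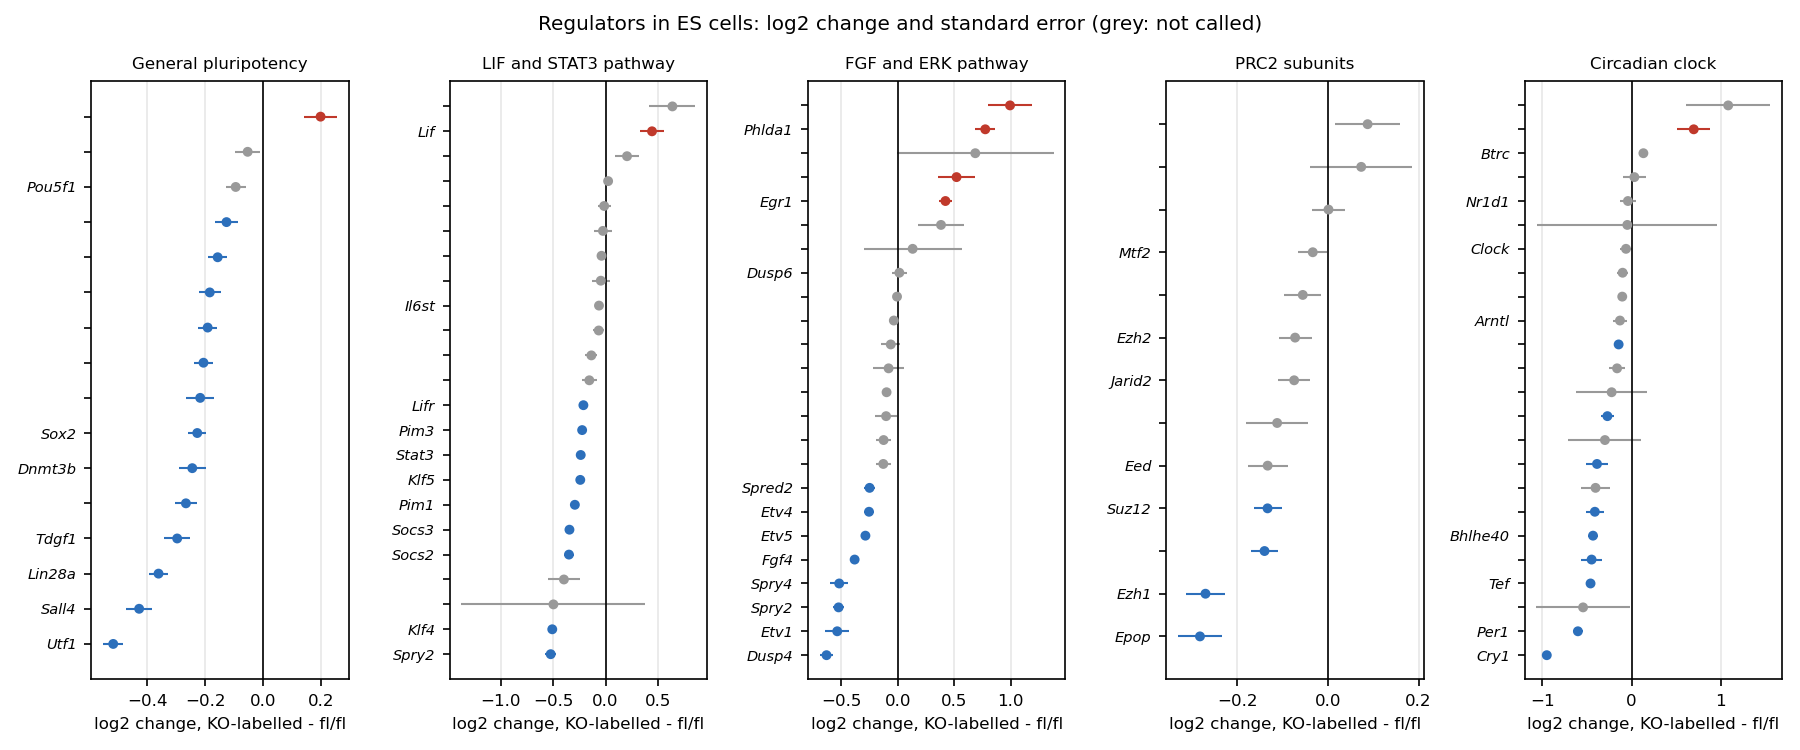
Log2 change (x axis, KO-labelled minus fl/fl) of tested genes in 5 lists, with bars of 1 standard error and names for the genes described. Red points are called higher, blue lower and grey not called; the x axes differ between panels. In the first panel 13 of the 16 genes drawn lie in blue below 0, whereas in the PRC2 panel 4 of 13 do.

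DNA methylation genes fell in the same range. Of 16 tested, 9 were lower and 1 higher, with a median of -0.15. Of the 16, 7 had a mean between 100 and 500 CPM and 1 a higher one. At these levels 37.7% and 58.8% of all genes were lower. The methyltransferases Dnmt1 (-0.23 ± 0.03), Dnmt3a (-0.26 ± 0.04) and Dnmt3b (-0.24 ± 0.05) and their cofactor Dnmt3l (-0.31 ± 0.04) all fell, while Uhrf1 (-0.05 ± 0.03), which brings DNMT1 to replicating DNA, was not called. Tet1, which oxidises methylcytosine, had 851 and 835 CPM in fl/fl and 656 and 659 CPM in KO-labelled cells (log2 change -0.36 ± 0.04, edgeR adjusted p = 0.00017). These 5 falls held without each ES cell library. Without 1 ES cell library 5 to 7 of the 16 were called lower, and 5 after thinning to the smallest library. Of 19 histone lysine demethylases 13 were lower and none higher, with a median of -0.23, beside 11 lower and 2 higher of 27 histone lysine methyltransferases with a median of -0.13. The difference between the 2 classes was not tested. Of all 46 genes 20 had a mean between 100 and 500 CPM, as had 9 of the 19 demethylases. At that level 37.7% of all genes were lower. After Kdm4b the stable falls included Jmjd1c (-0.39 ± 0.03), Kdm4c (-0.31 ± 0.03), Kdm5b (-0.27 ± 0.03) and Kdm5c (-0.38 ± 0.04), and Kdm3a (-0.27 ± 0.04). Kdm6b (0.04 ± 0.06), which removes the mark that PRC2 sets, was not called. Over both classes, 10 to 17 of 46 genes were called lower in fits without 1 ES cell library, and 15 with library sizes alone, against 24.

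Sterol and fatty acid synthesis rose. SREBP factors, released from the endoplasmic reticulum when sterols are scarce, activate these genes through short promoter elements. Of 30 genes of cholesterol synthesis and uptake, 22 were higher and 1 lower, with a median of 0.23; among the 20 enzymes, 17 rose and none fell. Fdps, farnesyl diphosphate synthase, had 169 and 165 CPM in fl/fl and 226 and 222 CPM in KO-labelled cells (log2 change 0.42 ± 0.03, edgeR adjusted p = 1.92e-05). Nsdhl, which acts late in the pathway, had 32.4 and 31.3 CPM in fl/fl and 44.1 and 47.5 CPM in KO-labelled cells (log2 change 0.52 ± 0.05, edgeR adjusted p = 0.000112). Sqle (0.34 ± 0.04), squalene epoxidase, Cyp51 (0.27 ± 0.04), Idi1 (0.23 ± 0.04), Lss (0.23 ± 0.04), Mvd (0.32 ± 0.04) and Hmgcs1 (0.23 ± 0.03) rose too. Among the controls, Stard4 (0.40 ± 0.04), a sterol carrier, rose, and Insig1 (0.04 ± 0.03), which retains SREBP, was not called. Srebf2 (-0.14 ± 0.04), the gene of the sterol SREBP itself, was the 1 fall, not called with library sizes alone (edgeR adjusted p = 0.247) or without any 1 of the 4 libraries (between 0.0611 and 0.209). Of the 30 genes, 13 had a mean between 100 and 500 CPM, where 8.15% of all genes rose.

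Fatty acid synthesis moved likewise, with 11 of 19 genes higher, none lower, and a median of 0.24. Fasn, fatty acid synthase, had 437 and 421 CPM in fl/fl and 558 and 611 CPM in KO-labelled cells (log2 change 0.44 ± 0.05, edgeR adjusted p = 0.000147). The desaturases Scd1 (0.44 ± 0.04), Scd2 (0.46 ± 0.04), Fads1 (0.34 ± 0.04) and Fads2 (0.51 ± 0.04) and the citrate lyase Acly (0.33 ± 0.04) rose, and Srebf1 (0.04 ± 0.04) was not called. In the fits without 1 ES cell library, 16 to 19 cholesterol genes and 9 to 10 fatty acid genes were called higher.

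Glycolysis went the other way. Of 23 genes, 17 were lower and none higher, with a median of -0.26, and 14 of the 17 kept their call without each ES cell library in turn. Hk2, the hexokinase of glucose entry, had 373 and 366 CPM in fl/fl and 248 and 255 CPM in KO-labelled cells (log2 change -0.55 ± 0.04, edgeR adjusted p = 2.11e-05). Gapdh had 2809.8 and 2726 CPM in fl/fl and 1991 and 1944 CPM in KO-labelled cells (log2 change -0.49 ± 0.04, edgeR adjusted p = 4.63e-05). Pkm, pyruvate kinase, had 4896 and 4871 CPM in fl/fl and 3678 and 3705 CPM in KO-labelled cells (log2 change -0.40 ± 0.04, edgeR adjusted p = 4.43e-05). Every step from Hk2 to lactate had a gene that fell, among them Gpi1 (-0.46 ± 0.03), Pfkl (-0.42 ± 0.04), Aldoa (-0.34 ± 0.05), Tpi1 (-0.40 ± 0.04), Pgk1 (-0.34 ± 0.05), Pgam1 (-0.32 ± 0.04), Eno1 (-0.41 ± 0.03), Ldha (-0.26 ± 0.04) and Ldhb. The glucose transporter Slc2a1 (0.04 ± 0.05) was not called. Of the 23 genes, 12 had a mean of at least 500 CPM, a class in which 58.8% of genes were lower. With library sizes alone 14 were lower and 2 higher.

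The hypoxia list, targets of the oxygen-sensitive HIF factors, shares 1 gene, Slc2a1, with glycolysis and moved the same way, with 16 of 24 lower, none higher, and a median of -0.27. Ddit4, an inhibitor of mTORC1, had 297 and 302 CPM in fl/fl and 195 and 191 CPM in KO-labelled cells (log2 change -0.63 ± 0.07, edgeR adjusted p = 0.000103). Bnip3, a mitophagy receptor, had 328 and 349.7 CPM in fl/fl and 243 and 221 CPM in KO-labelled cells (log2 change -0.54 ± 0.05, edgeR adjusted p = 6.82e-05). Pdk1 (-0.36 ± 0.04), which blocks pyruvate oxidation, Egln3 (-0.24 ± 0.04), a HIF prolyl hydroxylase, and Hif1a (-0.26 ± 0.03) fell. Vegfa (0.11 ± 0.05), Adm (0.14 ± 0.12) and Slc2a1, also HIF targets, were not called. Without 1 ES cell library 12 to 14 of the 24 were called lower. Of the 24, 11 had a mean between 100 and 500 CPM and 1 a higher one. At these levels 37.7% and 58.8% of all genes were lower.

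**Figure D4:**
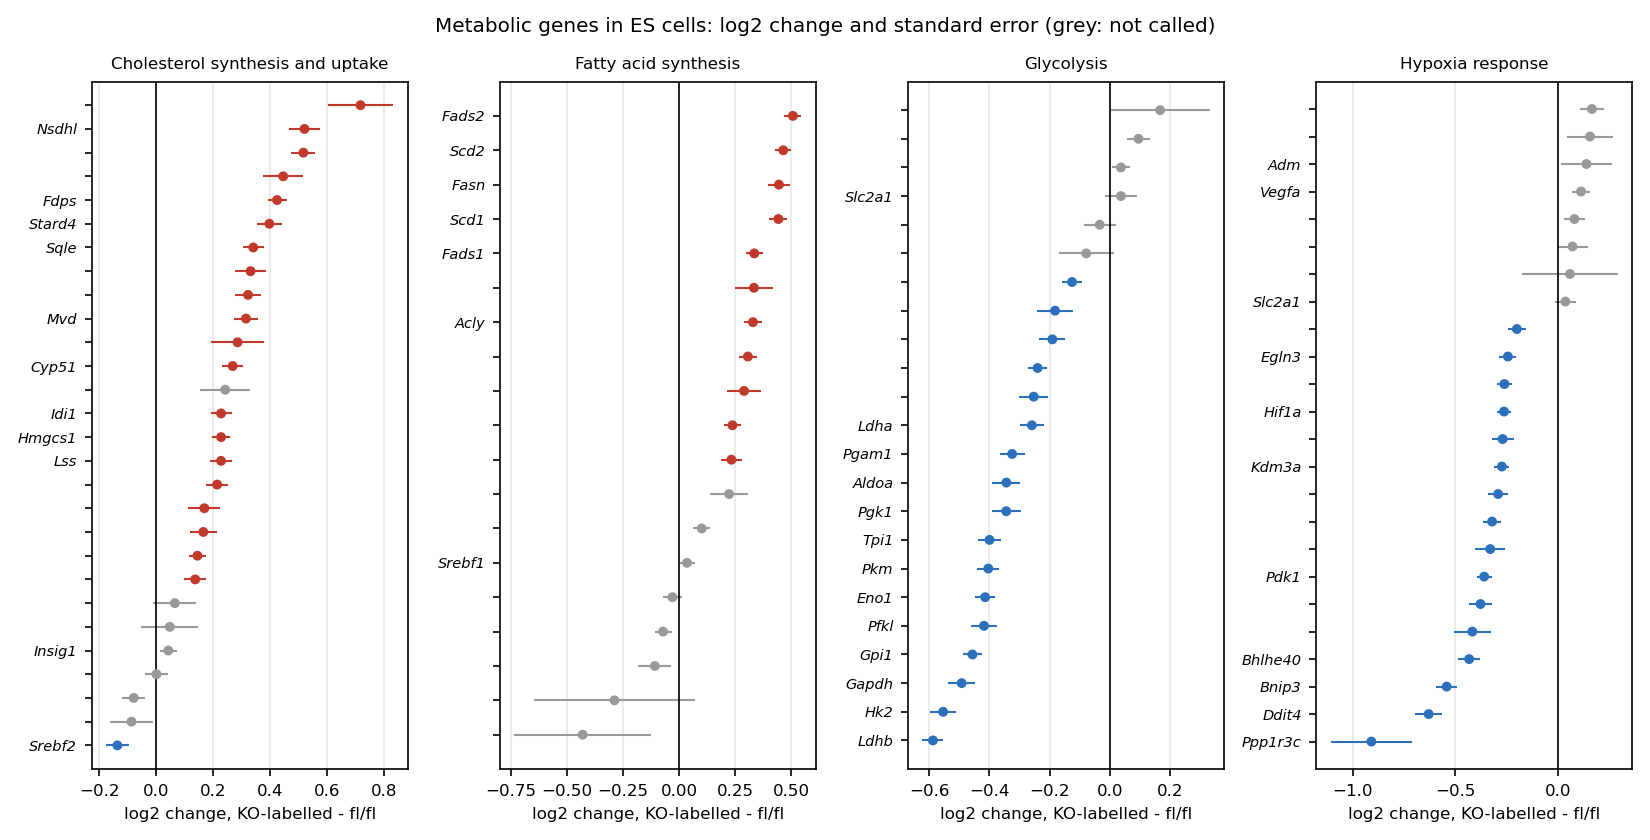
Log2 change (x axis, KO-labelled minus fl/fl) of tested genes of 4 metabolic lists, with bars of 1 standard error and names for the genes described; red is called higher, blue lower, grey not called, and the x axes differ. The 20 called rises drawn in the first panel and the 11 of the second contrast with 17 called falls in glycolysis and 16 in the hypoxia list.

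The promoters of these groups were read from the RefSeq table (GRCm38.p6) over the 250 bases before the start site, on both strands. The hypoxia response core, ACGTG, was present in 15 of 19 hypoxia genes and 11 of 22 glycolysis genes that had an entry, and in 24.2% of all tested genes and 18.5% of all genes in the table. In lists where most calls were rises, it was present in 6 of 22 cholesterol, 5 of 16 fatty acid and 1 of 10 keratin genes. Over the whole comparison it was present in 30.2% of genes called lower and 20.1% of those called higher. Its palindromic form CACGTG, the E-box, contains it, and was present in 13.5% and 8.14%. CCAAT was present in 43.4% of genes called lower and 39.5% of those called higher, and the cAMP response element TGACGTCA in 3.01% and 2.52%. Falls were more frequent among abundant genes, and the shares were not compared at equal levels. The sterol regulatory element TCACNCCAC was present in 1 of 22 cholesterol genes, Hmgcs1, and in 1.25% of tested genes. CCAAT was present in 18 of those 22 and 40.6% of tested genes, and the cAMP response element TGACGTCA in none of them and 2.82%. A match is a description of the letters, and binding was not measured. The 4 promoters shown stand for a fallen gene of glycolysis with the core in 3 places, a second with it in 2, a fallen hypoxia gene, and the sterol gene that holds the element. Capitals mark the core in Ldha (chr7:46845554-46845803, + strand), Pgk1 (chrX:106186850-106187099, + strand) and Bnip3 (chr7:138909507-138909756, - strand), and the sterol element in Hmgcs1 (chr13:119690101-119690350, + strand).
Ldha: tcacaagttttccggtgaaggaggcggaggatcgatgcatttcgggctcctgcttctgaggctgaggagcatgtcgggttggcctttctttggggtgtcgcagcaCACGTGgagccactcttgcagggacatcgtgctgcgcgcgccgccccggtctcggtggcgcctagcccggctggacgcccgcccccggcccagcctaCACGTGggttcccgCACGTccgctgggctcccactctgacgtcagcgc
Pgk1: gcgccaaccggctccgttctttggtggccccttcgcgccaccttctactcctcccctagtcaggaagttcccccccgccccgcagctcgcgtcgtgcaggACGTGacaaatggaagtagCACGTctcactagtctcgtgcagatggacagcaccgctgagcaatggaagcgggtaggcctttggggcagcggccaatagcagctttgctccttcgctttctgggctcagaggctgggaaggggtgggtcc
Bnip3: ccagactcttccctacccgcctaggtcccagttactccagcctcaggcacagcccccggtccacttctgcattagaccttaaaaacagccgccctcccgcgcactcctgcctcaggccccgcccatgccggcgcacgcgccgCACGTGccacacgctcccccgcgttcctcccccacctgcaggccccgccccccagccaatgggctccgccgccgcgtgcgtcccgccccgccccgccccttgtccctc
Hmgcs1: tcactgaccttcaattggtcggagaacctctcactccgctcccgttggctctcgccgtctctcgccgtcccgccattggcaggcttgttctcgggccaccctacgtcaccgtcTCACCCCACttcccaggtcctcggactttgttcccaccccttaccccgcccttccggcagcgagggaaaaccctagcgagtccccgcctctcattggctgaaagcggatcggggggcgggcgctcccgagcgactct

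Transcripts of the mitochondrial genome and those of nuclear respiratory genes moved apart. All 13 mitochondrially encoded genes were higher, with a median of 0.49, and 10 kept the call without each ES cell library. mt-Co1, a subunit of cytochrome oxidase, had 7967 and 7966 CPM in fl/fl and 10194 and 10047 CPM in KO-labelled cells (log2 change 0.35 ± 0.07, edgeR adjusted p = 0.00432). mt-Cytb (0.59 ± 0.08) and mt-Nd1 (0.58 ± 0.08) rose further. Such transcripts also follow the quality and handling of RNA, and that part was not tested. Of 52 nuclear genes for the respiratory chain, pyruvate entry and mitochondrial gene expression, 20 were lower and none higher, with a median of -0.12. This is 38.5% lower, beside 12.8% of all genes. Of the 52, 19 had a mean between 100 and 500 CPM and 2 a higher one. At these levels 37.7% and 58.8% of all genes were lower. The ATP synthase subunits Atp5b (-0.28 ± 0.03) and Atp5a1 (-0.26 ± 0.03), the pyruvate dehydrogenase subunits Pdha1 (-0.20 ± 0.03) and Pdhb (-0.22 ± 0.04), and Polrmt (-0.33 ± 0.05), the mitochondrial RNA polymerase, fell. With library sizes alone 10 of the 52 were lower, and 10 to 14 without 1 ES cell library.

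Clock genes fell in several roles. In the circadian loop CLOCK and BMAL1 (Arntl) activate Per, Cry and output genes, and PER and CRY proteins repress them. CRY proteins are substrates of SCF ligases. Of 25 genes, 10 were lower and 1 higher, with a median of -0.22. Of 11 repressors 6 were lower, as were 1 of 6 activators, 1 of 3 output genes and 2 of 5 modifiers, and the difference between roles was not tested. Per1, a repressor, had 49 and 49.7 CPM in fl/fl and 31.7 and 33.4 CPM in KO-labelled cells (log2 change -0.60 ± 0.06, edgeR adjusted p = 8.04e-05), and Tef, an output factor, had 63.1 and 61.3 CPM in fl/fl and 44.9 and 45.5 CPM in KO-labelled cells (log2 change -0.46 ± 0.05, edgeR adjusted p = 9.2e-05). Bhlhe40 (-0.43 ± 0.05), another repressor, fell too, whereas Clock (-0.06 ± 0.07), Arntl (-0.13 ± 0.08) and Nr1d1 (-0.04 ± 0.09) were not called. Calls of Cry1, Per1, Tef and Bhlhe40 held in all fits, and 5 to 8 clock genes were called lower without 1 ES cell library. The E-box CACGTG, the binding site of CLOCK and BMAL1, was present in the 250 bases before the start site of 5 of 19 clock genes and 9.6% of tested genes. In lists where most calls were rises, it was present in 6 of 22 cholesterol, 2 of 16 fatty acid and 1 of 10 keratin genes. The promoters of the fallen genes Cry1 (chr10:85185055-85185304, - strand) and Per1 (chr11:69098699-69098948, + strand) are shown with it in capitals.
Cry1: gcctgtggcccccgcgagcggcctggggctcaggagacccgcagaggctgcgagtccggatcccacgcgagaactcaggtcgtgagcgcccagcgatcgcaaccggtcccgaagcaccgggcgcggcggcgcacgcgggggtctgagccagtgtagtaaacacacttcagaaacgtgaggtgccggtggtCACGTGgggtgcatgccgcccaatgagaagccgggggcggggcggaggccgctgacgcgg
Per1: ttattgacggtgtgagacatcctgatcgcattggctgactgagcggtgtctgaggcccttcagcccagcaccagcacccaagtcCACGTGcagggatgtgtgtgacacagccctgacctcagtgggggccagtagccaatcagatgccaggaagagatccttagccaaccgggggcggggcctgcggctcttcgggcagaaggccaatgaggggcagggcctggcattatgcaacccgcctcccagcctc

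The genes of SCF partners and of cell cycle substrates changed in both directions. Of 20 genes of the SCF core and its regulators, 2 were higher and 3 lower. This is 25.0% called, beside 23.7% of all genes. Cul1 (-0.02 ± 0.03) was not called, and the 3 falls were Skp1a, the RING subunit Rbx1 (-0.26 ± 0.05) and the exchange factor Cand1 (-0.21 ± 0.03). Of 63 F-box genes, 5 were higher and 14 lower, with a median of -0.02. This is 30.2% called, beside the same 23.7%. Skp2, whose product targets the CDK inhibitor p27, had 70.4 and 75.3 CPM in fl/fl and 95.9 and 102 CPM in KO-labelled cells (log2 change 0.44 ± 0.04, edgeR adjusted p = 8.78e-05), and Fbxo21, Fbxo22, Fbxo30 and Fbxo38 fell by 0.19 to 0.23 on the log2 scale. Thinning to the smallest library ended the calls of Fbxo22, Fbxo30 and Fbxo38 (edgeR adjusted p = 0.104, 0.0738 and 0.109). Fbxw7 (0.13 ± 0.05) and Btrc (0.13 ± 0.05), 2 widely studied F-box genes, were not called. With library sizes alone 8 F-box genes were lower, and 6 to 7 without 1 ES cell library, where 2 were higher.

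Of 6 cyclin genes 4 rose and 1 fell. Ccne1, cyclin E1, had 142 and 146 CPM in fl/fl and 221 and 222 CPM in KO-labelled cells (log2 change 0.62 ± 0.03, edgeR adjusted p = 3.5e-06). Ccne2 had 15.2 and 15.7 CPM in fl/fl and 31.2 and 30.9 CPM in KO-labelled cells (log2 change 1.01 ± 0.07, edgeR adjusted p = 8.5e-06). Ccnd2 had 59.3 and 56.7 CPM in fl/fl and 91.2 and 95.8 CPM in KO-labelled cells (log2 change 0.69 ± 0.04, edgeR adjusted p = 5.77e-06). In these 3 genes every KO-labelled library stood clear of the fl/fl pair, and Ccnd1 (0.44 ± 0.05) rose as well. Cdkn1b, the gene of p27, had 74.7 and 72 CPM in fl/fl and 56.9 and 53.2 CPM in KO-labelled cells (log2 change -0.41 ± 0.05, edgeR adjusted p = 0.000202). Cdt1 (-0.33 ± 0.04), the replication licensing factor, fell, and Myc (0.09 ± 0.13) and Mycn (-0.02 ± 0.04) were not called. RNA levels say nothing of the proteins, whose breakdown is what SCF ligases control. Among 40 replication genes 10 were higher and 11 lower: Mcm2 (-0.29 ± 0.04), Mcm3 (-0.32 ± 0.03) and Mcm5 (-0.27 ± 0.03) of the helicase fell, and Pcna (0.26 ± 0.04), Rrm2 (0.21 ± 0.03) and Cdc6 (0.26 ± 0.04) rose. Of the 40, 20 had a mean between 100 and 500 CPM and 1 a higher one. At these levels 37.7% and 58.8% of all genes were lower. With library sizes alone 17 replication genes were higher and 5 lower, and without 1 ES cell library 4 to 10 were higher and 6 lower.

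Keratins and contractile genes rose. Of 15 keratins tested, 8 were higher and none lower, with a median of 0.91, and all 8 held without each ES cell library. Krt8, a keratin of simple epithelia, had 53 and 51.2 CPM in fl/fl and 78.3 and 82.9 CPM in KO-labelled cells (log2 change 0.63 ± 0.04, edgeR adjusted p = 8.69e-06), and its partner Krt18 had 56.4 and 56.8 CPM in fl/fl and 79.2 and 82.9 CPM in KO-labelled cells (log2 change 0.52 ± 0.04, edgeR adjusted p = 2.22e-05). Krt19 (0.79 ± 0.09), Krt42 (0.91 ± 0.07), Krt7 (0.48 ± 0.07), Krt16 (1.24 ± 0.24) and Krt80 (2.23 ± 0.31) rose as well as Krt17. Krt16 reached only 2.72 and 2.83 CPM and Krt80 only 2.63 and 2.46 CPM in KO-labelled cells. Of all genes tested 10.9% were called higher. A mean under 5 CPM was found for 9 of the 15 keratins. All genes under 1 CPM had a median change of 0.24, and those between 1 and 5 CPM one of 0.14. Of 34 actin and contractile genes, 19 rose and 2 fell, beside 10.9% and 12.8% of all genes. Tagln, an actin-binding protein of smooth muscle, had 70.2 and 69.4 CPM in fl/fl and 115 and 111 CPM in KO-labelled cells (log2 change 0.69 ± 0.05, edgeR adjusted p = 1.16e-05). Tpm1 (0.46 ± 0.04), a tropomyosin, Zyx (0.35 ± 0.05), zyxin, and Fhl1 (0.32 ± 0.04) rose. Without 1 ES cell library 8 to 9 of the 34 were called higher.

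Several of these genes are also expressed by fibroblasts. On a list of 22 tested feeder genes 11 were higher and none lower, with a median of 0.24, beside 10.9% of all genes higher. Prrx1 (0.49 ± 0.07), Thy1 (0.48 ± 0.07), Col6a1 (0.45 ± 0.07) and Col6a2 (0.64 ± 0.09) rose, Col1a1 (0.10 ± 0.06) was not called at 309 and 283 CPM in fl/fl and 298 and 339 CPM in KO-labelled cells, and Dcn stood at 1.12 and 0.928 CPM in fl/fl and 0.803 and 1.34 CPM in KO-labelled cells. Without 1 ES cell library 6 to 9 feeder genes were called higher. The part of feeder RNA in the rise of contractile and matrix genes was not tested. In bulk RNA, more cells of a type cannot be told apart from more RNA per cell. Trophectoderm is the other tissue rich in simple keratins: 5 of its 21 genes were higher and 1 lower. This is 28.6% called, close to the 23.7% of all genes. The calls of Id2, Krt7, Krt8 and Krt18 held without each library, as did the fall of Tfap2c (-0.37 ± 0.04), a trophectoderm regulator. Id2 and these keratins are the same genes as described above, so the list adds no separate rises. Elf5 (1.96 ± 0.61), with 0.27 and 0.147 CPM in fl/fl and 0.758 and 0.927 CPM in KO-labelled cells, was not called without any 1 of the 4 libraries (edgeR adjusted p between 0.0984 and 0.203) or after thinning to the smallest library (0.167).

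The plot of all lists sets these groups side by side. Among the full lists plotted the share called lower was highest in general pluripotency (14 of 17), glycolysis (17 of 23) and hypoxia (16 of 24), and the share called higher in mitochondrially encoded transcripts (13 of 13) and cholesterol genes (22 of 30). Hox genes, the other listed developmental regulators and primitive streak genes had low shares in both directions, but 29 of 29, 28 of 38 and 14 of 17 of them had a mean under 5 CPM. At these levels few genes of any kind were called, 3.14% under 1 CPM and 12% between 1 and 5 CPM. Where no member of a list was called in 1 direction by edgeR, DESeq2 called none either, except 1 feeder gene lower. Unadjusted p was under 0.05 for 1 glycolysis and 2 hypoxia genes higher, and for 1 feeder, 1 primitive streak and 2 neuroectoderm genes lower. It was so for none of the PRC2, nuclear respiratory, ribosomal or demethylase genes higher and none of the Hox genes, keratins, fatty acid genes, cholesterol enzymes or mitochondrial transcripts lower.

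**Figure D5:**
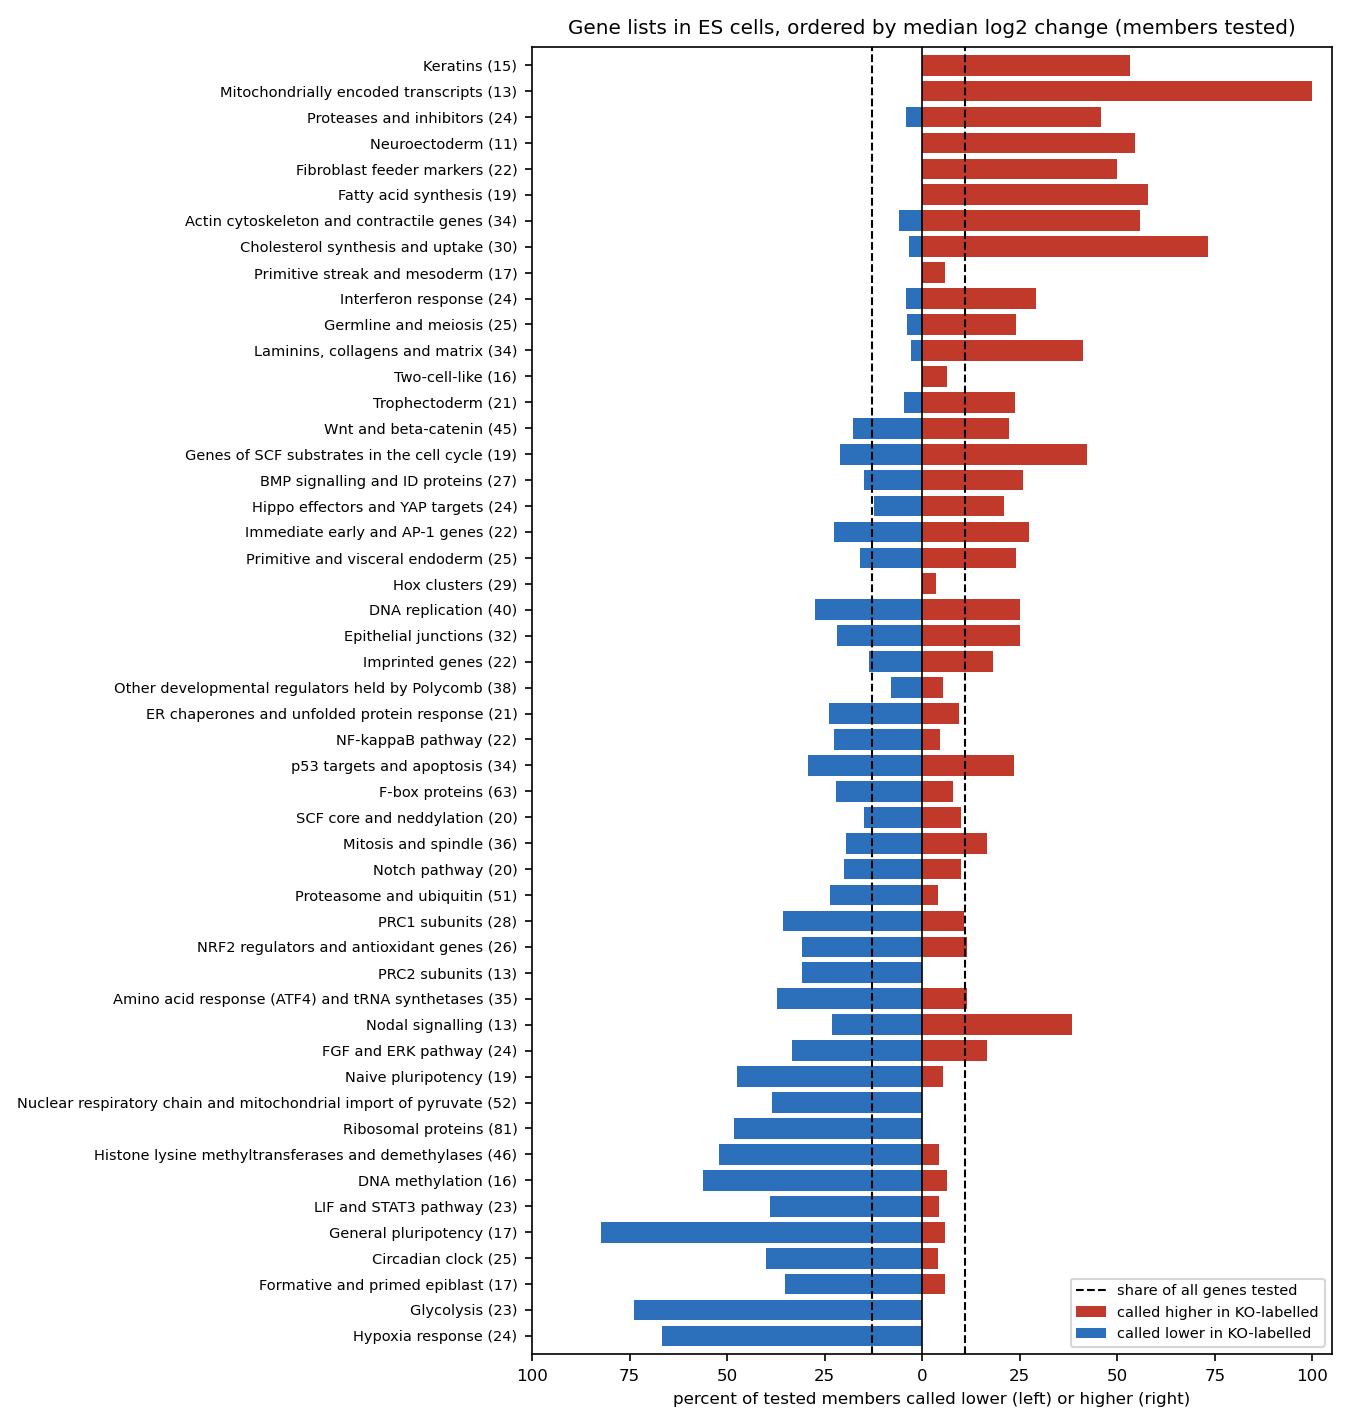
Percent of tested members called lower (blue, left) or higher (red, right) in KO-labelled ES cells for each list of at least 10 tested genes, ordered by median log2 change, with the number of genes in brackets. Dashed lines mark the shares over all tested genes, 12.8% lower and 10.9% higher.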

How the data were processed

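Poly(A) RNA of 8 libraries was counted per gene, and the 4 ES cell libraries were compared. The deposited table holds the authors' raw counts per gene symbol for 36255 genes, with no normalization; 9800 have 0 counts throughout. Tools named in the submitters' processing notes include Trim Galore 0.6.7, and the genome builds listed there are mm10 and GRCm38. The aligner, counter, annotation and strand setting were not given in the sources read, so near-identical and overlapping genes are uncertain. Of the symbols, 34715 (95.8%) matched GENCODE vM21 once and 7 more by an older symbol. Coordinates and promoters come from GENCODE vM21 and RefSeq GRCm38.p6.

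In edgeR 4.0.16 (R 4.3.3), filterByExpr left 16542 genes, TMM factors scaled the libraries, and glmQLFit and glmQLFTest (two-sided) compared KO_ESC with fl_fl_ESC in a model of 4 group means over all 8 libraries, with 4 residual degrees of freedom. P values were adjusted by Benjamini-Hochberg over all genes and called under 0.05. The standard error is the log2 change divided by the square root of F. The script was tested on simulated data. Replicates differed beyond sampling noise, with a chi-square per degree of freedom between 2.12 and 2.81.

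Genes were named by rule: Skp1a with 3 tested neighbours on each side, the 15 largest rises and falls of at least 5 CPM without overlap and with a proper name, the 8 smallest p values per direction, up to 6 called members per list, and members whose role is described. The comparison and lists were chosen with earlier results of these data known. A few genes that these rules select are not reported here or drawn, but stay in the counts. Lists were described by counts and medians only. DESeq2 1.42.0, other scalings and filters, thinning to the smallest library, a block for lots and leaving out each library were alternatives.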

Additional observations from a re-analysis of the deposited data

How the results depend on the processing

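The number of genes called stayed within 1.5 times of 3926 with other scalings and filters, with DESeq2 (2816), in the 4 ES cell libraries alone and with a block that sets lot 1 apart. It was 2158 after thinning to the smallest library, 2068 at an adjusted p under 0.01 and 17 for changes tested beyond 1.5-fold, and ranged from 1909 to 3958 when each of the 8 libraries was left out. Same-numbered lots did not deviate together over all tested genes (correlations from -0.0223 to 0.0183). Low genes counted as much as abundant ones here, so a small shared deviation could be missed. Whether the numbers pair the samples is not settled by these correlations. With the replicate block of lots 1, 2 and 12, 2236 genes were called, 127 of them at least 2-fold changed. The count of 205 such genes became 386 with no filter on low counts, 101 with a stricter one, which tests fewer genes, 70 with DESeq2, and 114 to 219 leaving out each library. Skp1a kept its direction and call throughout, from -0.27 to -0.15. Of 185 called genes named here, 160 kept the call in every alternative, 14 lost it without an ES cell library, 3 with library sizes alone, 6 with DESeq2, 9 with the block of lots 1, 2 and 12 and 15 after thinning. None reversed. Of 88 list counts, 36 moved by over 1.5 times with library sizes alone, 37 after thinning, 42 with that block and 38 to 49 without 1 ES cell library, most without fl/fl lot 2. With 2 libraries per group, changes of low genes are the least certain; the cause of these shifts was not tested.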

Other observations

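Signalling lists beyond those above gave mixed counts. Of 27 BMP genes 7 were higher and 4 lower: with Id2, Id1 (0.49 ± 0.09), another ID protein, the BMP antagonist Grem1 (0.41 ± 0.05), the activin antagonist Fst (0.90 ± 0.13) and the ligand Bmp8b (1.02 ± 0.15) rose, and the inhibitory Smad7 (-0.32 ± 0.05) and the receptor Acvr2b (-0.29 ± 0.05) fell. Bmp4 (0.08 ± 0.08) was not called. In the Nodal list, Lefty2 (0.61 ± 0.06), an inhibitor of Nodal, had 55.7 and 59.1 CPM in fl/fl and 87.5 and 87.9 CPM in KO-labelled cells and rose, and its coreceptor Tdgf1 (-0.30 ± 0.05) fell. Of 45 Wnt genes 10 were higher and 8 lower; the receptors Fzd5 (-0.46 ± 0.05) and Fzd7 (-0.42 ± 0.04) fell, the secreted inhibitor Notum (1.40 ± 0.21) rose, and the feedback gene Axin2 (0.16 ± 0.08) was not called. In the NF-kappaB list, the inhibitor Nfkbia (-0.46 ± 0.06) and the adhesion molecule Icam1 (-0.50 ± 0.04) fell. Of 24 interferon genes 7 were higher and 1 lower, among them Irf1 (0.57 ± 0.08), an interferon-responsive factor, Tap1 (0.41 ± 0.08), a peptide transporter, and Xaf1 (1.12 ± 0.20). Without 1 ES cell library 4 to 6 Wnt genes and 4 to 5 interferon genes were higher, and 2 to 3 BMP and 4 to 8 Wnt genes lower; the 4 Wnt falls were those without KO-labelled lot 1. Thinning to the smallest library ended the calls of Bmp8b (edgeR adjusted p = 0.288) and Tap1 (0.102). Of 11 neuroectoderm genes tested 6 were higher and none lower, and 4 kept the call without each ES cell library. The neuronal cytoskeletal genes Map2 (0.79 ± 0.08) and Tubb3 (0.56 ± 0.09) rose, whereas the neural regulators Sox1 (-0.00 ± 0.23) and Pax6 (-0.63 ± 0.26) were not called. No neuroectoderm gene was called lower by edgeR or DESeq2, and 2 had an unadjusted p under 0.05 in that direction. The inhibitors of metalloproteinases Timp2 (0.46 ± 0.05) and Timp3 (0.63 ± 0.07) rose with the plasminogen activator Plat (0.70 ± 0.11).

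Of 81 ribosomal protein genes 39 were lower and none higher, by edgeR, with a median of -0.13. Of the 81, 46 had a mean of at least 500 CPM and 32 one between 100 and 500 CPM, where 58.8% and 37.7% of all genes were lower with medians of -0.14 and -0.08, so the count is close to that of other genes at these levels. Of these calls, 7 held without each ES cell library in turn, and 10 were lower with library sizes alone. Without fl/fl lot 2, 9 were lower, and the median stayed below 0 with library sizes alone (-0.05). DESeq2 called none higher, and none had an unadjusted p under 0.05 in that direction.

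The zinc finger models Gm14288 and Gm14440 on chromosome 2, chosen after their values were seen, moved in opposite directions. Gm14288 had 0.494 and 0.342 CPM in fl/fl and 9.41 and 14.7 CPM in KO-labelled cells, and Gm14440 had 11.6 and 10.3 CPM in fl/fl and 2.68 and 0 CPM in KO-labelled cells. The sequences of the models were not compared here. Any reads that match both could have been assigned to either, and the handling of such reads was not given in the sources read. Gm14288 and Gm14440 were not called by DESeq2 (adjusted p = 0.0568 and 0.213).

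Over chromosomes 1 to 19 and X the median change of tested genes lay between -0.05 and 0.03 on the log2 scale. It was -0.08 over 13 genes of Y, and 0.49 over the 13 mitochondrial genes described above.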
